A study of Mus musculus with 16 samples.

Results

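The genes described here are 7 members of the MHC class II presentation pathway, out of 48432 genes in the authors' table of oxLDL-treated peritoneal macrophages (PM). They were chosen by symbol and by role, not by their values: the class II chain genes *H2-Aa*, *H2-Ab1* and *H2-Eb1*, the peptide editor genes *H2-DMa* and *H2-DMb1*, the invariant chain gene *Cd74* and the transactivator gene *Ciita*. All 7 were found in the table. RNA-seq was performed in 4 groups with 4 samples each, which the labels give as C57BL/6J mice. LDAH-KO PM came from mice without LDAH (Lipid Droplet-Associated Hydrolase), made by replacing the first coding exons with an expression-selection cassette, and WT PM came from their wild-type littermates. LDAH-Tg PM (labelled as overexpression) carried an *Ldah* transgene under the *Csf1r* promoter and intronic enhancer, which directs expression in myeloid cells, and Control PM came from their littermates without it, under a genotype label that also names ApoE. The age and sex of these mice, and whether a sample pooled several mice, were not found in the labels. All groups had PM harvested 5 days after 3% thioglycolate, cultured overnight and then given oxLDL (50 μg/ml) for 48 h, so every value describes lipid-loaded macrophages and no group was left unloaded.

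MHC class II molecules are heterodimers of an alpha and a beta chain that present peptides from endosomes and lysosomes to CD4+ T cells. In the endoplasmic reticulum they assemble with the invariant chain, which blocks the groove and directs the complex to endosomes, where proteases degrade it and H2-DM exchanges its last fragment for antigenic peptide. Their transcription depends on CIITA, a non-DNA-binding coactivator that is recruited to promoters by RFX, CREB and NF-Y proteins bound to the X and Y boxes. In macrophages *Ciita* is low at rest and is induced by interferon gamma, whereas dendritic cells and B cells express class II constitutively.

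The table holds the mean TPM (transcripts per 1000000, a level that takes transcript length into account) that the authors made for each group. It holds no value for a single sample, so the spread between samples and the depth are unknown, and the differences below come without SD, p-value or any check across replicates. *Ldah* had a mean of 44.5 TPM in WT, 27.9 TPM in LDAH-KO, 28.5 TPM in Control and 124 TPM in LDAH-Tg PM. LDAH-KO PM were thus below their own controls but level with Control PM, and a value per gene cannot tell reads of the deleted exons from the others. *Apoe* lay between 7947 and 10404 TPM in the 4 groups. Some abundant transcripts are listed at 0 in whole groups, as given below for the cathepsin genes, so a 0 in this table is not taken as absence. Ratios are log2 ratios of the means after adding 0.5 TPM, over genes with a mean of at least 1 TPM in the groups compared and a value above 0 in both. A factor of 1.5 was used as a size, not as a test.

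The promoters of class II genes are shown first, because the X and Y boxes they share are what CIITA and its DNA-binding partners act through. Of the 7 members, 4 have promoter windows of 300 bases (250 bases before to 50 after a transcript start) in the RefSeq table for GRCm38.p6, and those of *H2-Aa*, *H2-Eb1* and *H2-DMb1* contain the start of the authors' loci. The windows of *H2-DMa* lie upstream of its deposited locus and are not shown, and none of them held the full order of letters described below. The stretches below are written 5′ to 3′ on the strand of the gene. Capitals mark GNAAC from the X1 part of the X box, TGANG from its X2 part and the Y box GATTGG, which is the reverse of a CCAAT box. The letters were chosen after these promoters had been read. The *H2-Aa* stretch is chr17:34287837-34287934 on the minus strand. Those of *H2-Eb1* (chr17:34305746-34305842) and *H2-DMb1* (chr17:34153067-34153164) are on the plus strand.
H2-Aa: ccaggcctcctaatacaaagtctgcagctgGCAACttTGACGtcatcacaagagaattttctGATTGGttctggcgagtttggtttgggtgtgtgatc
H2-Eb1: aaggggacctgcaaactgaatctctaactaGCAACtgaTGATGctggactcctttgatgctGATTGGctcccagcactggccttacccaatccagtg
H2-DMb1: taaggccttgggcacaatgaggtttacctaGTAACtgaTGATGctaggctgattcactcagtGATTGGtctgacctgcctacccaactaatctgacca

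All 3 stretches held the parts in the same order, with 2 to 3 bases between GNAAC and TGANG, 18 to 20 bases between TGANG and GATTGG, and the Y box starting 49 to 62 bases before the RefSeq transcript start. The *H2-DMb1* stretch lies mostly inside the authors' locus, which starts at 34153072. Of the 32851 promoter windows in the table, 14 (0.0426%) held this order on the strand of the gene, with at most 4 bases in the first gap and 5 to 30 in the second, and 5 of the 14 belong to class II genes (*H2-Aa*, *H2-Eb1*, *H2-DMb1*, *H2-Eb2* and *H2-Ob*). With either strand searched, 24 windows (0.0731%) held it. The Y box letters alone were in 8.71% of windows on the strand of the gene. *H2-Eb2* (chr17:34325513-34325609, plus strand), a second E beta gene, held all the parts in this order with another spacing. It had 0 bases between GNAAC and TGANG, and its Y box started 101 bases before the transcript start. The gene was listed at 0 in WT, LDAH-KO and LDAH-Tg PM and at 0.00593 TPM in Control PM, where a 0 is not taken as absence. *H2-DMb2* (chr17:34145099-34145193, plus strand), the neighbour and close copy of *H2-DMb1*, held TGANG and GATTGG without a match to GNAAC. Its stretch also lies inside the authors' locus, which starts at 34143307. A match is only a description of these letters, and no binding was measured in these PM.
H2-Eb2: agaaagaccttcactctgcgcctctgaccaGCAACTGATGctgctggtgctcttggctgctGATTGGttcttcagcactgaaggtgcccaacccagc
H2-DMb2: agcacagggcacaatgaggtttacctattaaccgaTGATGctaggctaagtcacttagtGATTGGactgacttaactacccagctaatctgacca

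Class II transcripts other than *Ciita* lay between 17.4 and 76.5 TPM in every group, whereas *Ciita* was below 1 TPM. As deposited, the members summed to 216 TPM in WT, 235 TPM in LDAH-KO, 235 TPM in Control and 235 TPM in LDAH-Tg PM, which is 0.0216% to 0.0235% of each column's total. *Cd74* was the highest in all 4 groups, followed in each of them by *H2-DMb1*, *H2-Aa* and *H2-Ab1*. Next came *H2-DMa* and *H2-Eb1*, in that order in WT PM (18.1 and 17.9 TPM) and in the reverse order in the other 3 groups. With no value per sample, it cannot be said which neighbours in this order differ beyond their spread.

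**Figure D1:**
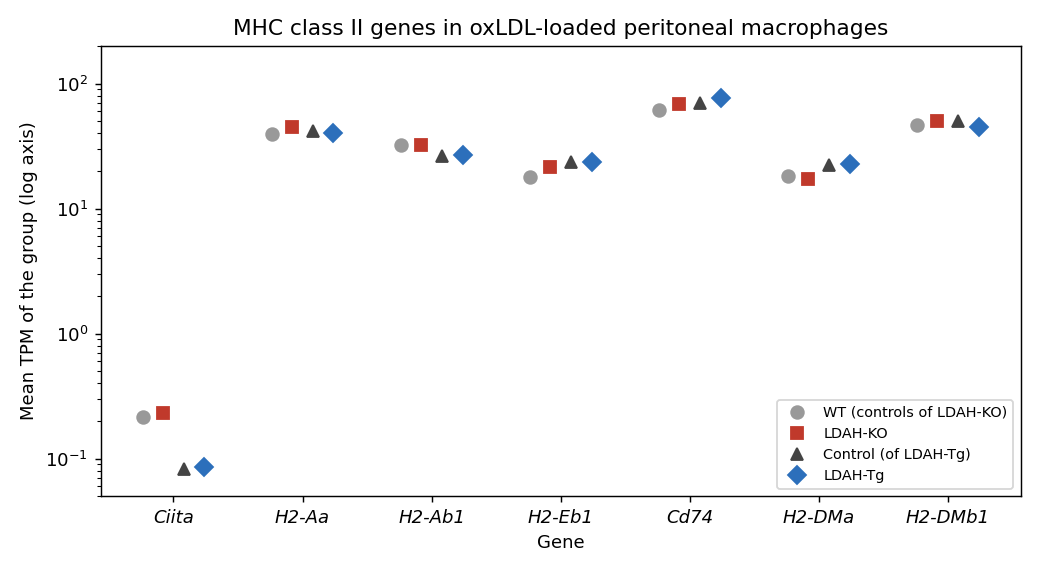
Mean TPM of the 7 genes (log axis) in WT, LDAH-KO, Control and LDAH-Tg PM, where each point is the authors' mean of 4 samples and has no error bar. The 6 genes other than *Ciita* lie between 17.4 and 76.5 TPM and differ little between groups, and *Ciita* lies between 0.0820 and 0.230 TPM, with both groups of the LDAH-KO line above both groups of the LDAH-Tg line.

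*H2-Aa*, which encodes the alpha chain of the I-A molecule, had means of 39.3 TPM in WT, 44.9 TPM in LDAH-KO, 41.8 TPM in Control and 40.1 TPM in LDAH-Tg PM. The highest of these means was 1.14 times the lowest, and LDAH-KO PM was the highest group as deposited. That rank depends on the scaling. After quantile normalization LDAH-KO PM (42.9 TPM) lay below Control (45.0 TPM) and LDAH-Tg PM (43.3 TPM). *H2-Ab1*, which encodes the I-A beta chain, had means of 32.0 TPM in WT, 32.3 TPM in LDAH-KO, 26.3 TPM in Control and 27.0 TPM in LDAH-Tg PM. Its means lay apart by mouse line, with both groups of the LDAH-KO line above both groups of the LDAH-Tg line. Quantile normalization kept this order but narrowed it, with a log2 ratio of Control over WT PM of -0.04 in place of -0.28. *H2-Eb1*, which encodes the beta chain of the I-E molecule, had means of 17.9 TPM in WT, 21.5 TPM in LDAH-KO, 23.6 TPM in Control and 23.5 TPM in LDAH-Tg PM, and WT PM was the lowest group. The files place these genes on chromosome 17 of GRCm38, *H2-Ab1* at 34263209 to 34269418 and *H2-Eb1* at 34305877 to 34316199 on the plus strand, and *H2-Aa* at 34282744 to 34287827 on the minus strand.

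The I-E molecule also needs an alpha chain. In C57BL/6 mice the E alpha gene is a pseudogene without its promoter, and the table lists it (*H2-Ea-ps*) at 0 in all 4 groups. *H2-Eb1* was therefore measured beside an alpha chain gene listed at 0. This held for the LDAH-Tg line as well, which was founded in B6D2F1 mice and then crossed repeatedly with C57BL/6 mice.

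*Cd74*, the invariant chain gene, was the most abundant member in every group, with means of 61.7 TPM in WT, 68.4 TPM in LDAH-KO, 70.2 TPM in Control and 76.5 TPM in LDAH-Tg PM. It was higher in the altered genotype of either line than in that line's own controls. The dendritic cell gene *Batf3*, described with the markers of other cells, had its 4 means in the same order (13.0, 15.5, 16.1 and 21.2 TPM). It was the only 1 of 8 listed dendritic cell markers to reach 1 TPM. The defining gene *Zbtb46*, below 1 TPM, had another order (0.374, 0.362, 0.315 and 0.413 TPM). What part dendritic cells have in the *Cd74* values was not tested. *Cd74* lies outside the class II region, on the plus strand of chromosome 18 at 60803848 to 60812646, and shares that locus in the table with the microRNA gene *Mir5107*.

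H2-DM is itself a class II-like heterodimer of an alpha and a beta chain. The alpha chain gene *H2-DMa* had means of 18.1 TPM in WT, 17.4 TPM in LDAH-KO, 22.4 TPM in Control and 22.6 TPM in LDAH-Tg PM. The beta chain gene *H2-DMb1* had 46.8 TPM in WT, 50.4 TPM in LDAH-KO, 50.1 TPM in Control and 44.9 TPM in LDAH-Tg PM. The line again separated *H2-DMa*, with both groups of the LDAH-Tg line above both groups of the LDAH-KO line, and did not separate *H2-DMb1*. They lie on the plus strand of chromosome 17 at 34135182 to 34139101 (*H2-DMa*) and 34153072 to 34160230 (*H2-DMb1*), with *H2-DMb2* between them, so the 5 members on this chromosome span 181 kb. *H2-DMb2* was at 0.701 TPM in WT, 1.00 TPM in LDAH-KO, 0.970 TPM in Control and 0.693 TPM in LDAH-Tg PM. Of the 100-base stretches in coding transcripts of *H2-DMb1* in GENCODE M21, 13.7% also occur in *H2-DMb2*, and reads from them could be assigned to either gene. For the other members 0% of such stretches occur in another gene.

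*Ciita* had means of 0.217 TPM in WT, 0.230 TPM in LDAH-KO, 0.0820 TPM in Control and 0.0861 TPM in LDAH-Tg PM, below the filter of 1 TPM in every group. In plain TPM the Control value was 0.378 times the WT value, and the highest group was 2.81 times the lowest, farther apart than for any other member. The table gives *Ciita* (chromosome 16, 10488178 to 10543054) the same locus as *Dexi*, a gene on the opposite strand that was named after its values were seen and that had 10.9 to 17.6 TPM. The library kit keeps strand, but whether the counting used it is not given in the sources used here, and values this low at an unknown depth may rest on few reads.

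The first comparison asked how loss of LDAH affected these genes in loaded PM. None of the 6 class II genes with values reached a factor of 1.5 between LDAH-KO and WT PM, and 5 of the 6 were slightly higher in LDAH-KO PM. Over all 11286 genes compared, 2.22% reached that factor in either direction and 33.4% were higher in LDAH-KO PM by any size, so a count of 0 of 6 past the factor lies near the background. Median-ratio scaling raised the share higher in LDAH-KO PM to 50.0% of all genes compared and quantile normalization to 52.1%, and after either 6 of the 6 class II genes were higher. The log2 ratio was 0.26 for *H2-Eb1*, above that of 96.6% of genes compared, and 0.19 for *H2-Aa*, above that of 93.9%. It was 0.15 for *Cd74* and 0.11 for *H2-DMb1*. *H2-Ab1* was level (0.01), and *H2-DMa* was lower by 0.06 on the log2 scale as deposited, but higher by 0.02 after median-ratio scaling and by 0.05 after quantile normalization. The median of the 6 was 0.13, beside -0.08 for all genes compared. The highest ratios were thus those of *H2-Eb1*, *H2-Aa* and *Cd74*, and none of these sizes can be set against the spread between mice.

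The second comparison asked the same of LDAH overexpression. LDAH-Tg PM had class II values close to those of Control PM, with 3 of 6 genes higher, 3 lower and 0 past a factor of 1.5. Of 11389 genes compared, 1.94% reached that factor and 50.5% were higher in LDAH-Tg PM by any size. *Cd74* had the highest log2 ratio (0.12, above that of 72.8% of genes compared) and *H2-DMb1* the lowest (-0.16, above that of 19.6%). The class II chain genes were near 0, with log2 ratios of -0.06 for *H2-Aa*, 0.04 for *H2-Ab1* and -0.005 for *H2-Eb1*, and *H2-DMa* was at 0.01. The median of the 6 was 0.004, beside 0.002 for all genes compared.

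The third comparison set the control groups of the lines beside each other. Mouse line, cohort and library preparation cannot be told apart in it, and it shares its samples with both other comparisons. Of 11400 genes compared, 38.6% reached a factor of 1.5 and 39.3% were higher in Control PM by any size (49.8% after median-ratio scaling and 50.2% after quantile normalization). Among the class II genes 0 of 6 reached that factor, while 5 of 6 were higher in Control PM. *H2-Eb1* had the highest log2 ratio (0.39), followed by *H2-DMa* (0.30), *Cd74* (0.19), *H2-DMb1* (0.10) and *H2-Aa* (0.09), and *H2-Ab1* was lower (-0.28). The median of all genes compared was itself -0.17, and relative to it the ratios were 0.56 for *H2-Eb1*, 0.48 for *H2-DMa*, 0.36 for *Cd74* and -0.10 for *H2-Ab1*. After quantile normalization *H2-Eb1* passed the factor, at 0.63.

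**Figure D2:**
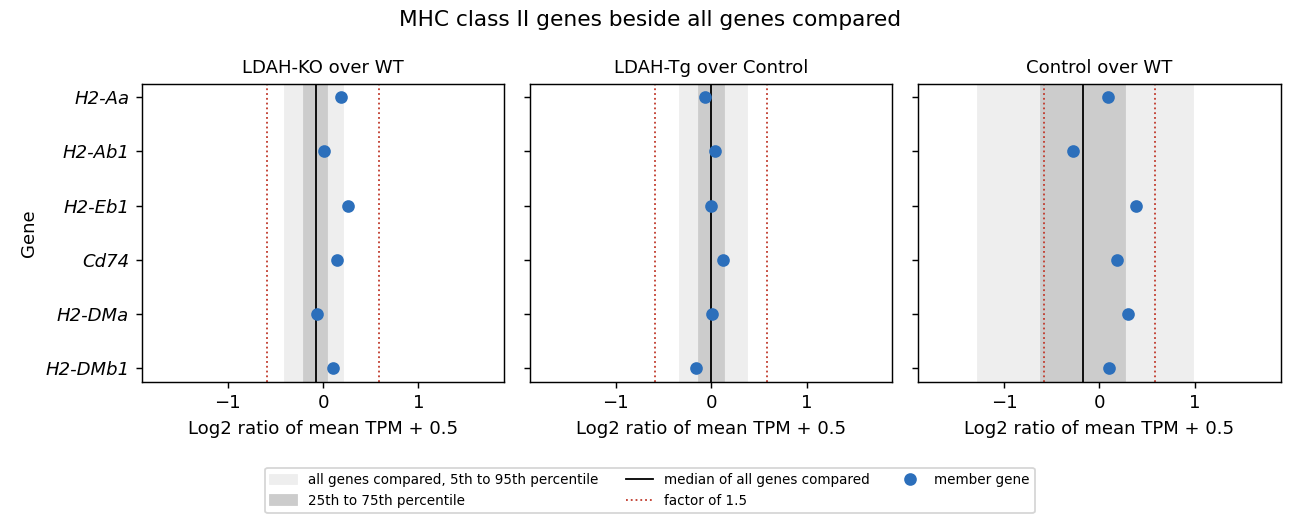
Log2 ratios of mean TPM (after adding 0.5) of the 6 class II genes with values, in LDAH-KO over WT, LDAH-Tg over Control and Control over WT PM, beside all genes compared (dark band, 25th to 75th percentile; light band, 5th to 95th percentile; line, median). Dotted lines mark a factor of 1.5, which 0 of 6 genes reached in any of the 3 comparisons, although the bands of Control over WT are far wider (5th percentile -1.27, 95th percentile 0.98) than those of LDAH-KO over WT (-0.40 and 0.21).

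Proportions among the members do not depend on the scaling of a column and were compared within each group. The ratio of *H2-Aa* to *H2-Ab1*, the partner chains of I-A, was 1.23 in WT, 1.39 in LDAH-KO, 1.59 in Control and 1.48 in LDAH-Tg PM. The alpha chain transcript was thus above the beta chain transcript in every group, by most in Control PM. *H2-Eb1* over *H2-Ab1* was 0.560 in WT, 0.666 in LDAH-KO, 0.896 in Control and 0.868 in LDAH-Tg PM, with both groups of the LDAH-Tg line above both groups of the LDAH-KO line. The invariant chain over *H2-Ab1* was 1.93 in WT, 2.12 in LDAH-KO, 2.67 in Control and 2.83 in LDAH-Tg PM, and split by line in the same way. The ratios over *H2-Ab1* share a denominator that was itself lower in the LDAH-Tg line, so they are not separate observations. *Cd74* over *H2-Aa* was 1.57 in WT, 1.52 in LDAH-KO, 1.68 in Control and 1.91 in LDAH-Tg PM. Its log2 shift between the control groups was 0.10, beside 0.47 for *Cd74* over *H2-Ab1*. *H2-DMa* over *H2-DMb1* was 0.387 in WT, 0.344 in LDAH-KO, 0.448 in Control and 0.504 in LDAH-Tg PM, so the alpha chain transcript of the editor was the scarcer one in each group. For *H2-Eb1* over *H2-Ab1* the log2 shift was 0.25 in LDAH-KO, -0.05 in LDAH-Tg and 0.68 between the control groups, and for *H2-DMa* over *H2-DMb1* it was -0.17, 0.17 and 0.21.

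**Figure D3:**
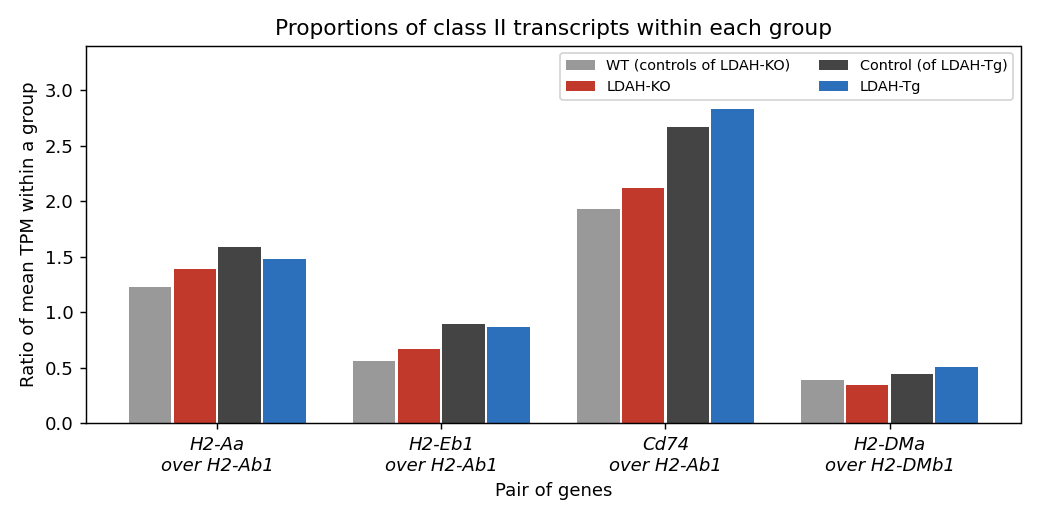
Ratios of mean TPM between pairs of class II genes within WT, LDAH-KO, Control and LDAH-Tg PM (bars from 0, drawn without error bars because each is a ratio of 2 group means). Control and LDAH-Tg PM have the higher ratio of *H2-Eb1*, of *Cd74* and of *H2-Aa* to *H2-Ab1*, such as 0.896 and 0.868 for *H2-Eb1* against 0.560 and 0.666 in WT and LDAH-KO PM. These ratios share *H2-Ab1* as denominator and are not separate observations.

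The genes whose values over the 4 groups were most like the class II genes were searched among 8988 others with a mean of at least 5 TPM, by the Euclidean distance between centred log2 profiles. The search used only the values as deposited. In these the median class II profile was lowest in WT PM (-0.11) and about equal in the other 3 groups (0.04 in each). That equality depends on the scaling. After quantile normalization the median log2 ratio of the class II genes to WT PM was 0.20 for LDAH-KO and 0.38 for Control PM. The nearest were *Tmem120a* (distance 0.0259), *Rps7* (0.0274), *Cox11* (0.0279), *Ndufb6* (0.0283) and *Atg101* (0.0303), followed by *Lins1*, *Hint1*, *Mrpl30*, *Ube2l6* and *Polr2d*. The distances of the members from their own median profile ran from 0.125 for *H2-Aa* to 0.355 for *H2-Ab1*. The nearest genes were picked from 8988 for their small distance over only 4 means. Their distances therefore cannot be set against those of the members, and no likeness in function is drawn from them.

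Other genes of the pathway were taken from lists by role. H2-O is an inhibitor of H2-DM that is typical of B cells, and its genes were nearly undetected, with 0.0156 to 0.0571 TPM for *H2-Oa* and 0.0709 to 0.157 TPM for *H2-Ob*. The *H2-Oa* value is uncertain, because the table gives that gene the same locus as *BC051537* and *H2-Pa*. None of the 5 other class II genes listed reached 1 TPM on average in any comparison.

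The factors that bind the X and Y boxes were all expressed. *Nfya* (82.6 to 121 TPM), *Nfyc* (23.9 to 33.8 TPM) and *Nfyb* (9.42 to 10.9 TPM) encode the subunits of NF-Y, and *Rfxap* (24.1 to 57.1 TPM), *Rfxank* (4.25 to 6.02 TPM) and *Rfx5* (2.43 to 3.38 TPM) those of the RFX complex. *Creb1*, which encodes a factor that binds the X2 part, was at 15.4 TPM in LDAH-KO, 9.17 TPM in Control and 9.05 TPM in LDAH-Tg PM, below its WT level. In LDAH-KO PM 2 of these 7 genes were higher by any size and 5 lower, near the share of all genes compared (33.4% higher), and 0 passed a factor of 1.5, with log2 ratios of -0.43 for *Creb1* and -0.39 for *Rfx5*. In LDAH-Tg PM 5 were higher and 2 lower, beside 50.5% higher among all genes compared, with ratios from -0.07 to 0.16. Between Control and WT PM *Rfxap* was higher (log2 ratio 1.11) and *Creb1* lower (-1.15) by more than that factor. These were the only calls among the 7 genes, beside 38.6% of all genes compared past the factor in either direction. *Rfxap* was thus at 24.8 TPM in WT and at 54.2 TPM in Control PM.

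Genes of peptide processing other than *Sppl2a* were far more abundant than the class II chains, though several cathepsins have no usable value. *Ctss* and *Ctsl* encode the cathepsins that remove the invariant chain in different antigen presenting cells. *Ctss* is listed at 0 in WT and LDAH-KO PM, and had 8294 TPM in Control and 5822 TPM in LDAH-Tg PM. *Ctsl* is listed at 0 in WT, LDAH-KO and Control PM and had 5880 TPM in LDAH-Tg PM, and *Ctsb* and *Ctsd* are listed at 0 in all 4 groups. These zeros come in whole groups next to values such as 8294 TPM, so no ratio is given against them. The lysosomal thiol reductase gene *Ifi30* had 913 to 1157 TPM, the asparaginyl endopeptidase gene *Lgmn* 1418 to 2064 TPM, the cathepsin inhibitor gene *Cst3* 1882 to 3006 TPM and *Ctsz* 3813 to 4894 TPM. *Sppl2a*, whose protease clears the last membrane fragment of the invariant chain, had 84.1 TPM in WT, 76.4 TPM in LDAH-KO, 34.8 TPM in Control and 26.9 TPM in LDAH-Tg PM.

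In LDAH-Tg PM all 6 of these processing genes with values were lower by any size, though none reached a factor of 1.5. Their median was -0.26 on the log2 scale, beside 0.002 for all genes compared and 0.004 for the class II members. *Ctss* was lower by 0.51, *Lgmn* by 0.41 and *Sppl2a* by 0.37 on the log2 scale. By any size 50.5% of all genes compared were higher there. Lower values were not particular to the processing genes. The 6 turnover and tetraspanin genes described below were all lower (median -0.16), as were 5 of 6 macrophage markers with values (-0.14). Of the 7 transcription factor genes, 5 were higher. In LDAH-KO PM 3 of 5 were higher and 2 lower, with a median of 0.02, beside 33.4% higher among all genes compared. Between Control and WT PM 1 of 5, *Sppl2a*, was lower by more than a factor of 1.5 (-1.26), beside 38.6% of all genes compared past it in either direction.

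Surface class II is removed by the ubiquitin ligase MARCH1. Its gene *March1* had 44.4 TPM in WT, 41.2 TPM in LDAH-KO, 15.9 TPM in Control and 13.0 TPM in LDAH-Tg PM. Its relative *March8* had 55.2, 48.6, 26.8 and 23.2 TPM in the same order. The log2 ratio of Control over WT PM was -1.46 for *March1* and -1.03 for *March8*, both past a factor of 1.5. They were the 2 of the 6 turnover and tetraspanin genes past it there, beside 38.6% of all genes compared. The endosomal tetraspanin genes *Cd63* (4388 to 4940 TPM), *Cd9* (1550 to 1924 TPM) and *Cd82* (90.1 to 110 TPM) stayed within a factor of 1.5 in each comparison. Of the 6 turnover and tetraspanin genes 1 was higher in LDAH-KO PM by any size, beside 33.4% of all genes compared, and 0 were higher in LDAH-Tg PM, beside 50.5%. None passed that factor in either.

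Costimulatory genes were low to moderate. *Cd274*, which encodes the inhibitory ligand PD-L1, had 85.2 to 108 TPM, *Icam1* 11.7 to 22.3 TPM, *Cd80* 10.7 to 13.9 TPM and *Cd86* 5.01 to 5.96 TPM. *Cd40* had 3.85 TPM in WT, 5.52 TPM in LDAH-KO, 2.34 TPM in Control and 2.24 TPM in LDAH-Tg PM. Of 5 with values 2 were higher in LDAH-KO PM (33.4% of all genes compared) and 1 in LDAH-Tg PM (50.5%), and 0 passed a factor of 1.5. Between Control and WT PM *Icam1* was higher (log2 ratio 0.72) and *Cd40* lower (-0.61) by more than that factor. Among all genes compared there, 38.6% passed it in either direction, so these calls lie near the background.

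Interferon gamma is the main inducer of *Ciita* in macrophages. *Ifng* is listed at 0 in all 4 groups, while the receptor genes *Ifngr1* (115 to 138 TPM) and *Ifngr2* (102 to 139 TPM) and the kinase genes *Jak1* (59.7 to 158 TPM) and *Jak2* (10.6 to 19.5 TPM) were expressed. *Irf1*, an interferon-induced factor that acts on *Ciita*, had 20.1 to 26.3 TPM, and *Socs1*, a feedback inhibitor, had 1.83 TPM in WT, 2.47 TPM in LDAH-KO, 4.69 TPM in Control and 5.02 TPM in LDAH-Tg PM. In LDAH-KO PM 2 of the 6 with values were higher and 4 lower, and their median was -0.11 on the log2 scale. In LDAH-Tg PM 2 were also higher and 4 lower, with a median of -0.10, and 0 passed a factor of 1.5 in either. The shares higher among all genes compared were 33.4% and 50.5%. Between Control and WT PM *Socs1* was higher (1.16), and *Jak1* (-1.19) and *Jak2* (-0.73) were lower by more than that factor. Of all genes compared there, 38.6% passed it in either direction.

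**Figure D4:**
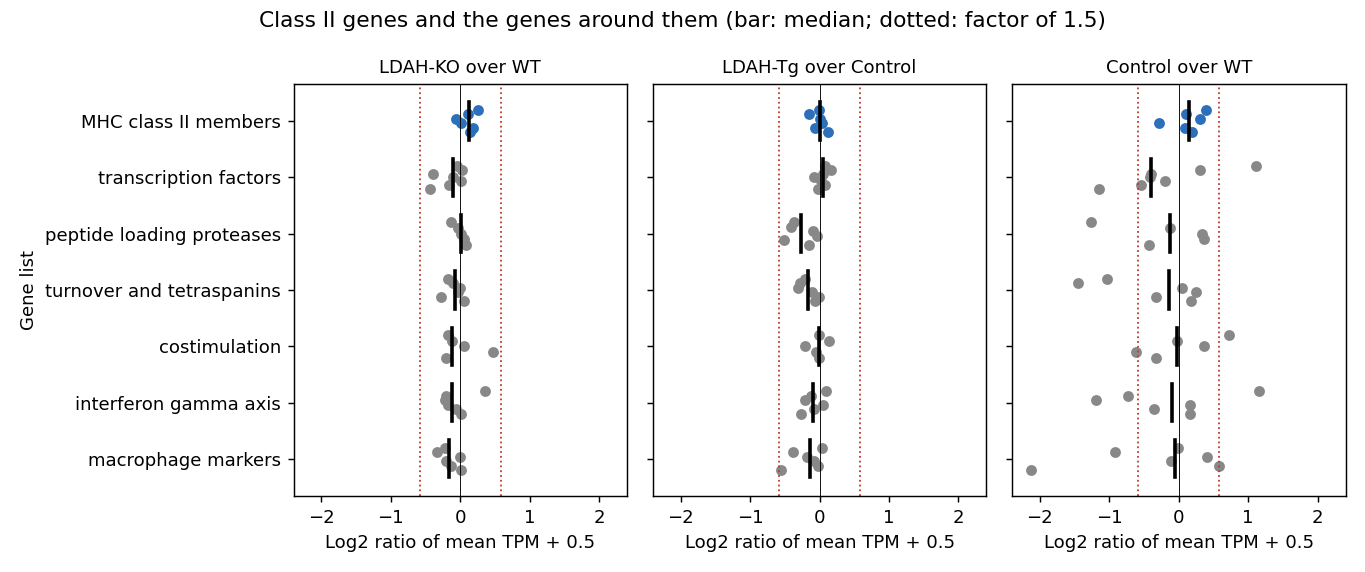
Log2 ratios of mean TPM (after adding 0.5) for the class II members (blue) and for 5 lists of related genes and the macrophage markers (gray), with each list's median as a bar and a factor of 1.5 as dotted lines. Each point is 1 gene. In Control over WT PM, where 38.6% of all genes compared pass that factor, 0 of 6 class II members lie outside the dotted lines as deposited (*H2-Eb1* does after quantile normalization, at 0.63), and *Rfxap* (1.11), *Sppl2a* (-1.26), *March1* (-1.46), *Jak1* (-1.19) and *Adgre1* (-2.13) are among the points farthest from 0. Whether the lists differ was not tested.

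Other class II-positive cells were looked for by their markers, since the means are of whole cultures, in which fewer cells of a type and less RNA per cell cannot be told apart. Of 8 dendritic cell markers only *Batf3* reached 1 TPM (13.0 in WT, 15.5 in LDAH-KO, 16.1 in Control and 21.2 TPM in LDAH-Tg PM). The defining genes *Zbtb46* (0.315 to 0.413 TPM), *Flt3* (0.00287 to 0.0132 TPM) and *Xcr1* (0 in 3 groups) were at or near 0. The summed level of this list was 13.7 TPM in WT, 16.4 TPM in LDAH-KO, 16.9 TPM in Control and 22.4 TPM in LDAH-Tg PM. *Batf3* made up most of it in each group. Of 6 B cell markers only *Ighm* reached 1 TPM (11.7 to 20.5 TPM), and *Ms4a1* and *Pax5* stayed at or below 0.225 TPM. The summed level was 21.7 TPM in WT, 20.7 TPM in LDAH-KO and 12.7 TPM in Control PM, with LDAH-Tg PM between them. T cell markers summed to 1.47 to 2.89 TPM, of which *Lck* made up 1.19 to 2.45 TPM, and eosinophil markers to 2.65 to 4.56 TPM. What part these cells have in the class II values was not tested.

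The macrophage label was checked on markers of these cells. High values were found for *Cd68* (3023 to 4959 TPM) and *Csf1r* (94.2 to 108 TPM), with lower ones for *Mertk* (50.7 to 60.0 TPM) and *Fcgr1* (18.2 to 24.3 TPM), while *Lyz2* is listed at 0 in all groups but LDAH-Tg PM. *Itgam*, which encodes CD11b, had 273 TPM in WT, 217 TPM in LDAH-KO, 144 TPM in Control and 110 TPM in LDAH-Tg PM, with log2 ratios of -0.33 in LDAH-KO, -0.39 in LDAH-Tg and -0.92 for Control over WT. *Adgre1*, which encodes F4/80, had 146 TPM in WT, 147 TPM in LDAH-KO, 33.1 TPM in Control and 22.4 TPM in LDAH-Tg PM. With *Lyz2* included, this list summed to 3927 TPM in WT, 3550 TPM in LDAH-KO, 5320 TPM in Control and 15308 TPM in LDAH-Tg PM. *Lyz2* alone made up 10105 TPM of the LDAH-Tg sum. The sum of that group is therefore not set against the others, where *Lyz2* is listed at 0. Of 5 resident PM genes, *Fcna* was the most abundant (22.6 TPM in WT, 27.8 TPM in LDAH-KO, 18.6 TPM in Control and 13.8 TPM in LDAH-Tg PM). *Vsig4* followed with 8.65 TPM in WT, 9.27 TPM in LDAH-KO, 2.98 TPM in Control and 2.88 TPM in LDAH-Tg PM (Control over WT -1.40 on the log2 scale). *Icam2* had 4.52 to 6.13 TPM, while the defining genes *Gata6* (1.11 to 2.07 TPM) and *Timd4* (0.0462 to 0.133 TPM) were lower, and the list summed to 23.6 to 44.5 TPM. Among genes of monocyte-derived PM *Folr2* had 24.0 to 56.2 TPM (log2 ratio of Control over WT -0.82), *Retnla* 1.16 to 1.84 TPM, *Irf4* 0.645 to 1.58 TPM (-0.86) and *Ccr2* 0.247 to 0.453 TPM, with sums of 26.4 to 59.6 TPM. Fibroblast markers summed to 25.1 TPM in WT, 13.8 TPM in LDAH-KO, 16.2 TPM in Control and 14.5 TPM in LDAH-Tg PM, and mesothelial markers to 5.41, 2.70, 5.05 and 5.24 TPM in the order WT, LDAH-KO, Control and LDAH-Tg. Of 4 markers listed for each of these cell types, the 2 fibroblast (*Pdgfra* and *Dcn*) and 2 mesothelial ones (*Upk3b* and *Wt1*) with values in the comparison of LDAH-KO with WT PM were lower there by more than a factor of 1.5. Of all genes compared there, 2.22% reached that factor in either direction. Between Control and WT PM, where several markers named above also passed it, the share was 38.6%. What part these markers have in the class II values was not tested.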

How the data were processed

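The members and gene lists were chosen with earlier results of these data known. RNA from oxLDL-treated PM (4 groups, 4 samples each) was sequenced by the authors from poly(A)-enriched, stranded libraries. The submitters' processing notes list STAR 2.4.2a, Trimmomatic, bcl2fastq 2.17.1.14, Cuffdiff 2.2.1, HTSeq and DESeq2, and the build GRCm38 (mm10), without roles. The tool that made the TPM and the annotation release are not given in the sources used here. The deposited values are the authors' mean TPM per group (4 columns, 0 columns of single samples). Each column sums to 1000000 over 48432 genes, and 1 line with the total was left out. Depth is unknown, and limma, planned for values per sample, was not run.

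A pseudocount of 0.5 TPM was added to every mean before log2 ratios were formed, for genes with a mean of at least 1 TPM over the 2 groups and none at 0. The factor of 1.5 is a size. A symbol on more than 1 gene stands for the entry of highest mean. Table starts, counted from 0, were made 1-based. Of the identifiers, 99.2% are in GENCODE M21, which gave strands and transcripts. Promoters are from RefSeq (GRCm38.p6). Named were all 7 members, all genes of the lists of other class II genes, transcription factors, proteases and the interferon gamma axis, up to 4 of the most abundant and any past a factor of 1.5 in each other list (of cell types other than macrophages, markers below 1 TPM stand only in the sums, except defining ones, which were named besides, like *Timd4*), *Ldah* and *Apoe*, and the 10 genes of nearest profile. Some items of the lists are not reported here and were left out of their counts. Steps were tested on simulated data. Alternatives were pseudocounts, filters, scalings and factors. Software was numpy 2.4.6, pandas 2.3.3 and matplotlib 3.10.9 under Python 3.11.15.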

Additional observations from a re-analysis of the deposited data

How the results depend on the processing

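The deposited values are group means, so their precision and the depth behind them are unknown. No paired analysis was possible because the table holds no column for a single sample, and for the same reason the values without each replicate were not run. Between LDAH-KO and WT PM the median log2 ratio of the class II genes stayed between 0.11 and 0.21 under 10 alternatives. Under each of them 5 or 6 of the 6 genes with values (6 of 7 with no filter, which brings in *Ciita*) were higher. The choice of factor cannot alter this median or this count, and a pseudocount cannot alter the count. Only the scalings and the filters could therefore have moved both. *H2-DMa* changed sign, from -0.06 to 0.02 after median-ratio scaling and 0.05 after quantile normalization. Between LDAH-Tg and Control PM the median lay between -0.001 and 0.01. Between Control and WT PM the median went from 0.14 to 0.32 after median-ratio scaling and to 0.38 after quantile normalization, both of which move the median of all genes compared from -0.17 to about 0. There the number of class II genes past the factor was 1 of 6 after quantile normalization (*H2-Eb1*), beside 36.8% of all genes compared, and 3 of 6 at a factor of 1.2 (2 higher and 1 lower), beside 69.7%. At a factor of 2 it was 0 in all 3 comparisons.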
